A study of Homo sapiens with 13 samples.

Results

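The HES and HEY genes encode basic helix-loop-helix repressors of transcription. The members were taken by symbol from the 2 deposited tables and were *HES1*, *HES2*, *HES4*, *HES5*, *HES6*, *HES7*, *HEY1*, *HEY2* and *HEYL*, 9 of the 56831 genes listed for each library. RNA was sequenced from H82 and H146, established lines of small cell lung cancer (SCLC) that the study assigns to the SCLC-N and SCLC-A subtypes, both labelled as wild type and grown in RPMI1640 with fetal bovine serum. In each line, untreated cells (3 libraries of H82 and 3 of H146) were compared with cells kept for 14 days in 100 nM FHD-286, an allosteric inhibitor of the ATPases SMARCA2 and SMARCA4 (3 libraries of H82 and 4 of H146). SMARCA4 and SMARCA2 are the motor subunits of the SWI/SNF chromatin remodelling complex. The labels do not say that the libraries came from separate cultures, so *p* values measure only the spread between these libraries, and each line is a single model.

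In hg38 (GENCODE release 44) the members lie on 6 chromosomes: *HES4* at chr1:998962-1000172, *HES5* at chr1:2528745-2530263, *HES2* at chr1:6412418-6424670, *HEYL* at chr1:39623435-39639643, *HES6* at chr2:238238267-238240662, *HES1* at chr3:194136148-194138732, *HEY2* at chr6:125747664-125761269, *HEY1* at chr8:79762371-79767857 and *HES7* at chr17:8120592-8124106. No annotated exon of another gene overlapped an exon of any member.

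When a Notch receptor is bound by a ligand on a neighbouring cell, its intracellular part is cut free and joins the DNA-binding protein RBPJ in the nucleus, where HES and HEY genes are among the best known targets. HES1 and HES5 hold neural progenitors back from differentiation by repressing proneural genes, and HEY1, HEY2 and HEYL are best known from the heart and blood vessels. HES6 differs from the others in that it opposes HES1 and favours neuronal differentiation. In the lung, Notch and HES1 hold back neuroendocrine (NE) fate, and NE forms of SCLC are known for low Notch activity.

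Values are TPM, a measure of transcript level corrected for gene length and set to the same sum in each library. Tests were run with limma on log2(TPM + 1). A gene entered the test in a line when 3 or more libraries held it at 1 TPM or more, and *p* values were adjusted (Benjamini-Hochberg) across every gene that entered. The fold changes below are on that scale, which understates the change of low genes, and a gene was called at an adjusted *p* under 0.05 (two-sided). Read depth is unknown here, so the precision is that of the spread between libraries. The median log2 fold change of all genes tested was -0.56 in H82 and 0.25 in H146, so TPM shares as such were shifted in opposite directions in the lines. In these bulk samples, fewer cells of a type and less RNA per cell cannot be told apart.

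Libraries of a group were compared by the SD of their log2 differences across genes. In treated H82, replicate 1 was the most distant (0.79 and 0.73 from replicates 2 and 3, which were 0.50 apart), and in treated H146 replicates 3 and 4 were close (0.34) while replicate 2 lay 0.75 and 0.79 from them. Replicate 2 of treated H82 held more of the RNAs typical of H146. Of 78 genes at 20 TPM or more in every untreated H146 library and listed at 0 in every untreated H82 library, the summed level was 180 TPM in replicate 2 of treated H82, against 40.4 TPM in replicate 1, 14.6 TPM in replicate 3 and 6531 to 6899 TPM in untreated H146. The 3 epithelial markers (*EPCAM*, *KRT8* and *KRT18*) summed to 1.39 to 3.16 TPM in untreated and 7.90 to 63.0 TPM in treated H82, highest in that replicate, and to 1294 to 1331 and 450.2 to 534 TPM in H146. *INSM1*, an NE transcription factor, reached 296 TPM in replicate 2 of treated H82, against 32.1 and 33.9 TPM in its companions. The 3 lymphocyte markers summed to at most 0.947 TPM in H82 and 9.57 TPM in H146. *CD3E* was at or near 0 in all 13 libraries, while in H146 *PTPRC* was at 3.29 to 6.75 TPM and *CD79A* at 0.638 to 0.929 TPM without and 0.992 to 2.93 TPM with treatment. The 3 fibroblast markers summed to 1.13 to 1.35 TPM in untreated and 3.48 to 27.1 TPM in treated H82, and to 6.48 to 8.58 and 12.2 to 18.2 TPM in H146. The mitochondrial share of the TPM was 22.1% to 24.1% in untreated H82 and 12.3% to 14.9% in treated H82, and 7.56% to 8.86% and 3.82% to 11.4% in H146. The 7 NE markers summed to 657 to 713 TPM in untreated and 195 to 633 TPM in treated H82, and to 1478 to 1795 and 1205 to 1554 TPM in H146. Among them *SYP* was at 193 to 212 TPM in untreated and 31.5 to 58.1 TPM in treated H82. *CHGA* was at 114 to 159 and 14.3 to 62.5 TPM there, and *NEUROD1* was lower too. By contrast, *INSM1* rose in H82 from 12.5 to 15.8 TPM to 32.1 to 296 TPM. *ELAVL4* rose there from 2.64 to 3.53 TPM to 7.81 to 10.1 TPM, while *CHGB* and *NCAM1* overlapped between the groups. In H146 *CHGB* was at 70.1 to 84.2 and 194 to 284 TPM, while *INSM1* was at 1140 to 1405 and 758 to 1018 TPM. *ELAVL4* was also lower in every treated H146 library, and the other markers overlapped. The part of these differences in the results was not tested.

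The stretches of DNA just before the starts of 4 members are shown because Notch is known to reach this family there, through RBPJ, and because these 4 showed the contrasting responses that follow. They come from RefSeq (GRCh38.p14), which held a promoter for 8 of the 9 members, all except *HEY1*. The 250 bases before the start were searched on both strands for the core RBPJ letters GTGGGAA, which read as TTCCCAC from the opposite strand, for the N-box CACNAG bound by HES proteins, and for the E-box CAGCTG bound by proneural proteins, and no match overlapped another. Capitals mark the RBPJ letters in *HES1*, *HES4* and *HEYL*, and the E-box in *HES6*. The *HES1* stretch is chr3:194135898-194136147 on the plus strand, and the others lie on the minus strand at chr1:1000143-1000347 (*HES4*, printed up to 46 bases before the start), chr2:238240039-238240288 (*HES6*) and chr1:39639644-39639893 (*HEYL*). The starts are those of RefSeq. GENCODE has longer transcripts of *HES4* and *HES6*, so the *HES6* stretch and part of the *HES4* stretch lie inside the gene spans given above. An exon of the longer *HES4* transcript covers 30 of the printed *HES4* bases, most of its RBPJ letters among them, and an exon covers 3 of the printed *HES6* bases. Each stretch is written 5′ to 3′.
HES1: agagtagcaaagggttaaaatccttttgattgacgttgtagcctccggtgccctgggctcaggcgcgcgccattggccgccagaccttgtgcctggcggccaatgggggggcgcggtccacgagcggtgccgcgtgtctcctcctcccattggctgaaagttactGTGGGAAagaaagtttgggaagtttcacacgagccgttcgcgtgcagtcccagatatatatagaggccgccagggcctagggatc
HES4: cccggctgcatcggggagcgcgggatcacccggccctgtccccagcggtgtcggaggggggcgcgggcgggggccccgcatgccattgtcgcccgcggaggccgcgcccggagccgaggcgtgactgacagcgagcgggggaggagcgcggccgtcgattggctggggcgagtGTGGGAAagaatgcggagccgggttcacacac
HES6: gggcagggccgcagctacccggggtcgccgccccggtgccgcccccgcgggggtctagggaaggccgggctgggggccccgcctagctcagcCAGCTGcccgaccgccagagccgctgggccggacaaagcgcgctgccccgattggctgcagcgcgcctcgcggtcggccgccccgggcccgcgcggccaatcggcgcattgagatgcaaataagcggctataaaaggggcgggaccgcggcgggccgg
HEYL: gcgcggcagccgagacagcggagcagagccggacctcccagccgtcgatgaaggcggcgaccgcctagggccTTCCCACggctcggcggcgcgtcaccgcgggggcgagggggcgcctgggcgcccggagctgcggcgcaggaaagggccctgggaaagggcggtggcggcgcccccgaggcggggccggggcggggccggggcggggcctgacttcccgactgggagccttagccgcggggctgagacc

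The RBPJ letters were in 5 of the 8 promoters, those of *HES1*, *HES4*, *HES5*, *HEY2* and *HEYL*, and in 5.43% of the 35116 promoters of the table. In *HES1* they lay 79 to 85 bases before the start, in *HES4* 71 to 77 bases and in *HES5* 75 to 81 bases, all in the same orientation, and *HES5* held a second copy on the other strand. In *HEYL* they lay 172 to 178 bases and in *HEY2* 207 to 213 bases before the start, on the other strand. No RBPJ letters were in the windows of *HES2*, *HES6* or *HES7*. The N-box letters were in *HES1*, 3 times, and in *HES7*, once, against 32.0% of all promoters, and the E-box letters were in *HES6* alone among the 8, against 14.0% of all promoters. A match is a description of the letters only.

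*HES6* was the most abundant member in all 4 groups, and the lines moved it in opposite directions. In H82 the untreated libraries held 163, 127 and 172 TPM and the treated libraries 214, 324 and 249 TPM, with no overlap. In H146 the untreated libraries held 875, 1078 and 1103 TPM and the treated libraries 147, 108, 173 and 177 TPM. Every treated H146 library was therefore far below every untreated one, and treated H146 reached the level of untreated H82. The mean in H82 rose from 154 ± 23.9 to 262 ± 56.3 TPM (SD, n = 3 each), a log2 fold change of 0.76 ± 0.21 (SE, limma adjusted *p* = 0.0169). The mean in H146 fell from 1018 ± 125 (SD, n = 3) to 151 ± 31.6 TPM (SD, n = 4), which is 6.74 times lower, with a log2 fold change of -2.76 ± 0.19 (SE, limma adjusted *p* = 2.51e-05). The effect in H146 minus that in H82 was -3.52 ± 0.29 (SE, limma interaction, adjusted *p* = 2.23e-06). The rise in H82 was not called without untreated replicate 1, untreated replicate 2 or treated replicate 2 (limma adjusted *p* = 0.0570, 0.0790 and 0.0521). The last of these is the library with signal of H146 genes, and without it the log2 fold change was 0.60.

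*HES1*, the canonical Notch target of neural and lung epithelium, was low in untreated cells and rose in both lines. In H82 it was at 1.95, 1.51 and 1.89 TPM without and at 3.998, 8.28 and 7.98 TPM with FHD-286. In H146 it was at 6.51, 7.40 and 6.27 TPM without and at 16.2, 9.35, 32.3 and 39.8 TPM with the drug. The groups did not overlap in either line, but the treated H146 libraries spanned a wide range, with replicates 3 and 4 above replicates 1 and 2. The log2 fold change was 1.43 ± 0.28 in H82 (SE, limma adjusted *p* = 0.00458) and 1.52 ± 0.43 in H146 (SE, limma adjusted *p* = 0.0188). The call in H146 was lost without untreated replicate 1 or untreated replicate 3 (limma adjusted *p* = 0.0578 and 0.0699). The H146 effect minus the H82 effect was 0.10, with a 95% confidence interval of -1.16 to 1.35 (limma adjusted *p* = 0.895), and its sign changed with the scaling between libraries. That interval is too wide to say that the lines responded alike.

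*HES4*, a close relative of *HES1* that mice lack, was the second most abundant member in untreated H146 and fell there. It was at 109, 158 and 169.8 TPM in untreated and at 59.6, 51.2, 42.0 and 41.4 TPM in treated H146, so the groups were far apart. The mean was 3.0 times lower with treatment, and the log2 fold change was -1.56 ± 0.19 (SE, limma adjusted *p* = 0.000449). In H82 the untreated libraries held 7.20, 5.34 and 11.2 TPM and the treated ones 22.2, 4.47 and 3.88 TPM. Replicate 1 of treated H82 was above all untreated libraries and the other 2 were below them, and the log2 fold change was -0.01 ± 0.61 (SE, limma adjusted *p* = 0.990), with a sign that changed with the scaling. The difference between the lines was -1.55 ± 0.65 (SE, limma adjusted *p* = 0.0576), and it was called after scaling by the median of ratios (-2.30, limma adjusted *p* = 0.0149) as well as by quantile normalization (-2.50, limma adjusted *p* = 0.00696). It was also called without untreated replicate 3, treated replicate 2 or treated replicate 3 of H82 (limma adjusted *p* = 0.0455, 0.0328 and 0.0210).

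*HES7*, the oscillating repressor of the segmentation clock in the embryo, rose in H82. It was at 31.7, 26.2 and 33.8 TPM in untreated and at 122, 64.2 and 72.5 TPM in treated H82, where it was the second most abundant member. Every treated library was above every untreated one, and the log2 fold change was 1.42 ± 0.25 (SE, limma adjusted *p* = 0.002999), which held without each library in turn. In H146 it was at 9.56, 10.5 and 13.9 TPM without and at 18.8, 35.1, 13.4 and 12.5 TPM with FHD-286. Replicates 1 and 2 were above the untreated libraries and replicates 3 and 4 were within their range, the reverse of the order seen for *HES1*. The log2 fold change there was 0.66 ± 0.33 (SE, limma adjusted *p* = 0.128). Between the lines the effects differed by -0.75 with a 95% confidence interval of -1.76 to 0.25 (limma adjusted *p* = 0.179). That difference was called after the median of ratios, at -1.54 (limma adjusted *p* = 0.0231), or without treated replicate 2 of H146 (-1.05, limma adjusted *p* = 0.0195).

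The remaining HES genes were near the lower limit of the tables. *HES2*, of which less is known, was between 0.646 and 2.21 TPM in untreated and between 0.282 and 2.47 TPM in treated libraries of both lines, with overlapping groups. Its log2 fold change in H82 was -0.40 ± 0.42 (SE, limma adjusted *p* = 0.445), with a sign that changed under quantile normalization. In H146 it did not pass the filter, and its mean log2(TPM + 1) differed by -0.06 (two-sided exact permutation test, *p* = 0.743, n = 3 and 4). *HES5*, a Notch target in neural stem cells, did not pass the filter in either line. It was listed at 0, 0.199 and 0 TPM in untreated H82 and at 0.0915, 0.213 and 0.0977 TPM in treated H82. It was at 0.0739, 0.0735 and 0.334 TPM in untreated H146 and at 0.757, 0.734, 0.246 and 0.383 TPM in treated H146. All of these are low values, and the treated and untreated ranges overlapped in both lines. The exact permutation test (two-sided) gave *p* = 0.500 in H82, where 3 against 3 libraries cannot go below 0.1, and *p* = 0.114 in H146, where 3 against 4 cannot go below 0.0286.

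**Figure D1:**
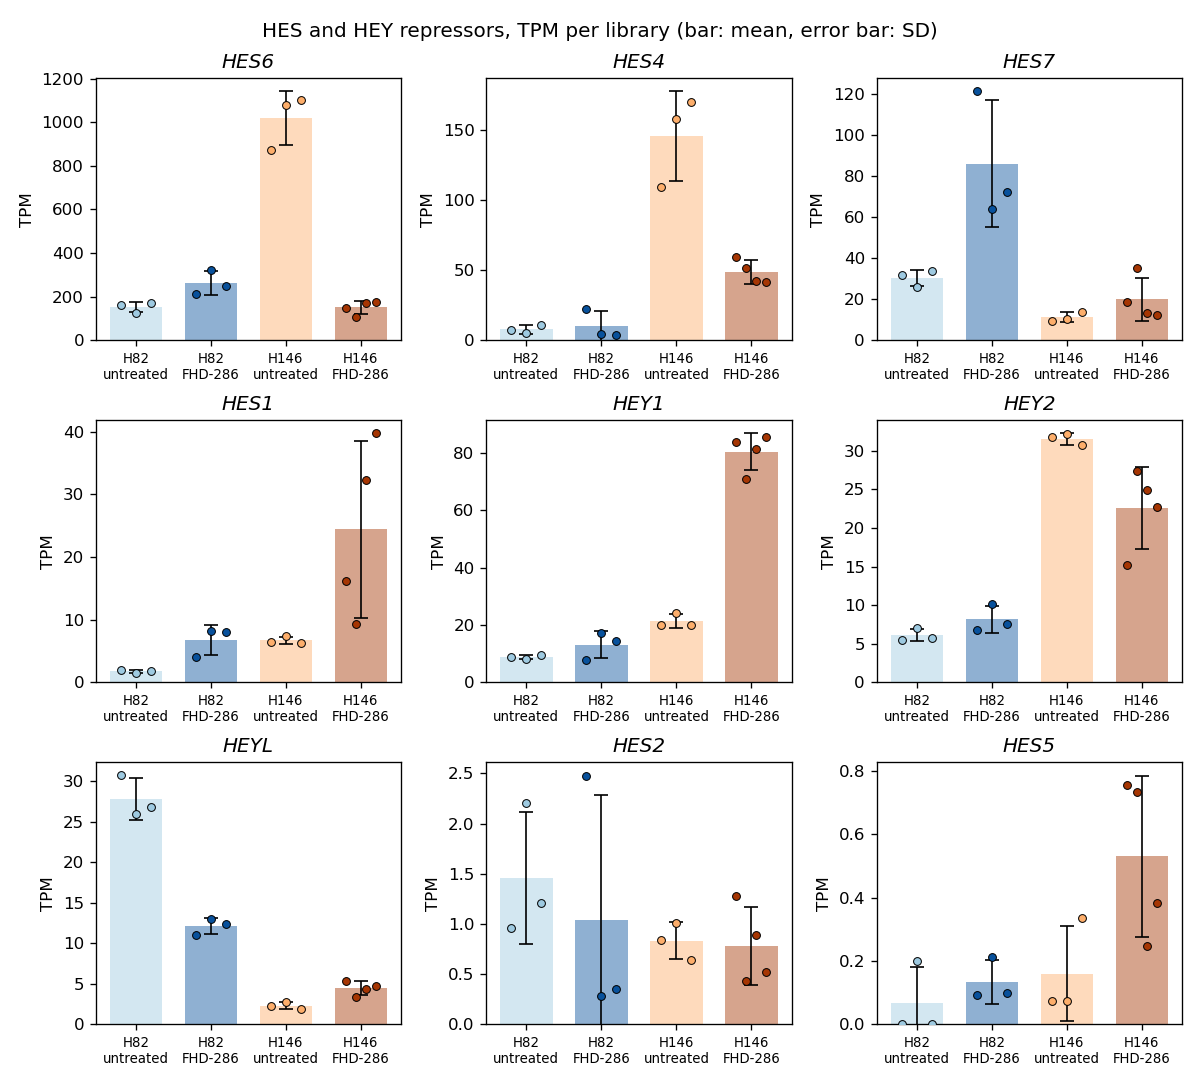
TPM of each of the 9 members in every library (points), with the group mean (bar) and SD (error bar) for untreated and FHD-286-treated H82 (n = 3 and 3) and H146 (n = 3 and 4); each panel has its own linear axis from 0. *HES6* falls from 875 to 1103 TPM to 108 to 177 TPM in H146 and rises in H82, and *HEY1* rises to 70.9 to 85.6 TPM in H146.

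Of the HEY genes, *HEY1* had the clearest rise. In H146 it was at 19.9, 24.2 and 19.9 TPM without and at 83.7, 70.9, 81.2 and 85.6 TPM with FHD-286. The treated libraries were close together and all far above the untreated ones, and the mean was 3.77 times higher (log2 fold change 1.87 ± 0.13, SE, limma adjusted *p* = 2.40e-05). In H82 it was at 8.78, 8.02 and 9.63 TPM without and at 7.87, 17.2 and 14.4 TPM with the drug, where replicate 1 was below every untreated library and the other 2 were above them. The log2 fold change in H82 was 0.47 ± 0.28 (SE, limma adjusted *p* = 0.193), and it was called without that replicate (0.78, limma adjusted *p* = 0.00429), after quantile normalization (1.11, limma adjusted *p* = 0.00985) and with the other scaling, the median of ratios (0.92, limma adjusted *p* = 0.0233). The rise was larger in H146 by 1.40 ± 0.30 (SE, limma interaction, adjusted *p* = 0.00163). That call was lost with either scaling, at 0.59 for quantile normalization (limma adjusted *p* = 0.0791) and at 0.63 for the median of ratios (limma adjusted *p* = 0.0686).

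*HEY2*, which acts with *HEY1* downstream of Notch in vessels, had smaller fold changes than *HEY1* in each line, a difference that was not tested. It was at 5.53, 7.001 and 5.75 TPM in untreated and at 6.84, 10.1 and 7.54 TPM in treated H82, with an overlap, and the log2 fold change was 0.36 ± 0.21 (SE, limma adjusted *p* = 0.174). The H146 libraries held 31.7, 32.2 and 30.7 TPM without and at 15.2, 27.4, 24.97 and 22.7 TPM with FHD-286. Every treated H146 library was below every untreated one, but the log2 fold change of -0.50 ± 0.19 (SE, limma adjusted *p* = 0.0626) was not called. It was called without mitochondrial genes (-0.52, limma adjusted *p* = 0.0446) and without treated replicate 2 (-0.60, limma adjusted *p* = 0.0207). Both scalings between libraries called *HEY2* as higher in H82 (0.79 and 1.14, limma adjusted *p* = 0.0133 and 0.00330 for the median of ratios and quantile normalization) and as lower in H146 (-0.80 and -0.68, limma adjusted *p* = 0.00958 and 0.0227). Subtracting the H82 effect from the H146 effect gave -0.86 ± 0.28 (SE, limma interaction, adjusted *p* = 0.0194), and both scalings called this difference too.

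*HEYL*, known as a NOTCH3 target in vascular smooth muscle, moved in opposite directions in the lines, with the signs of *HES6* exchanged. In H82 it fell from 30.8, 26.0 and 26.8 TPM to 11.1, 13.04 and 12.4 TPM. In H146 it rose from the low levels of 2.27, 2.78 and 1.88 TPM to 5.40, 3.35, 4.34 and 4.70 TPM. No treated library overlapped the untreated range in either line. The log2 fold change was -1.13 ± 0.15 in H82 (SE, limma adjusted *p* = 0.000880) and 0.71 ± 0.19 in H146 (SE, limma adjusted *p* = 0.0158). The rise in H146 was not called after the median of ratios or quantile normalization (limma adjusted *p* = 0.0581 and 0.0705), nor without untreated replicate 1 or 3 (limma adjusted *p* = 0.0577 and 0.0656). The H146 effect exceeded the H82 effect by 1.85 ± 0.24 (SE, limma interaction, adjusted *p* = 4.47e-05) and was called under both scalings.

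In H82, 8 of the 9 members passed the filter, and 3 were higher (*HES1*, *HES6* and *HES7*) and 1 was lower (*HEYL*). Of all 19770 genes tested in H82, 13.1% were higher and 45.5% were lower. The groups did not overlap for 4 of the 8 members, against 67.8% of all genes tested. Among only 8 members, rises were more frequent and falls less frequent than among all genes. Their median log2 fold change was 0.41 beside -0.56 for all genes. Untreated H82 libraries held 21227 to 21772 genes at 1 TPM or more, and treated ones 15554 to 16633. The part of this difference in the comparison was not tested. After the median of ratios or quantile normalization, 5 members were higher and 1 was lower, with 24.2% and 25.6% of all genes higher and 32.9% and 28.1% lower under these scalings. In H146, 7 members passed the filter, and 3 were higher (*HES1*, *HEY1* and *HEYL*) and 2 were lower (*HES4* and *HES6*). Of all 19585 genes tested in H146, 32.5% were higher and 15.5% were lower. The groups did not overlap for 6 of the 7, against 52.9% of all genes tested, and the median log2 fold change of the members was 0.66 beside 0.25 for all genes. Without untreated replicate 1 or untreated replicate 3, 1 member remained higher in H146, *HEY1*.

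**Figure D2:**
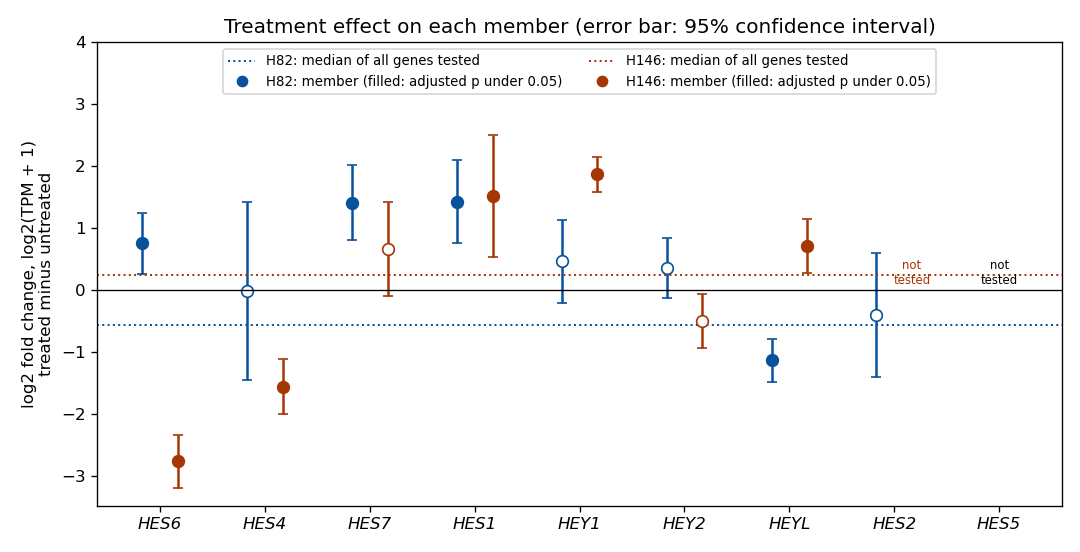
Log2 fold change, treated minus untreated on log2(TPM + 1), of each member tested in H82 (blue) and H146 (brown), with 95% confidence intervals; filled points passed an adjusted *p* of 0.05, and dotted lines mark the median of all genes tested (-0.56 and 0.25). *HES6* and *HEYL* lie on opposite sides of 0 in the lines, and *HES1* lies above 0 in both.

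The difference between the lines could be tested for 8 members, and 4 were called: *HES6* and *HEY2*, with a more negative effect in H146, and *HEY1* and *HEYL*, with a more positive one. This is close to the share of all 24374 genes tested, of which 59.3% were called. Of those genes, 46.0% had a more positive and 13.3% a more negative effect in H146. *HES1* was the only member called as higher in both lines, and *HES6* and *HEYL* were called in opposite directions.

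The make-up of the family within each library changed most in H146. *HES6* made up 82.3% ± 0.547 (SD, n = 3) of the summed TPM of the 9 members in untreated H146 and 42.5% ± 5.17 (SD, n = 4) in treated H146, while *HEY1* went from between 1.48% and 1.88% to between 21.8% and 24.1%. The summed TPM of the 9 members went from 1055 to 1346 TPM down to 307 to 385 TPM. In H82 the sum went up, from between 203 and 262 TPM to between 368 and 442 TPM, and the share of *HES6* was 62.3% to 65.6% without and 54.8% to 73.3% with treatment. The share of *HEYL* in H82 was 10.2% to 12.8% without and 2.84% to 3.36% with FHD-286, and that of *HES7* was 12.7% to 12.9% and 14.5% to 31.2%. The ratio of *HES6* to *HES1*, 2 proteins known to oppose each other, is the same for any single scaling factor applied to a library. It was 83.2 to 91.1 in untreated and 31.2 to 53.5 in treated H82, and 134 to 176 in untreated and 4.45 to 11.6 in treated H146. In both lines every treated library was below every untreated one. The rule behind the list did not use these values, and no test was run on shares or ratios.

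**Figure D3:**
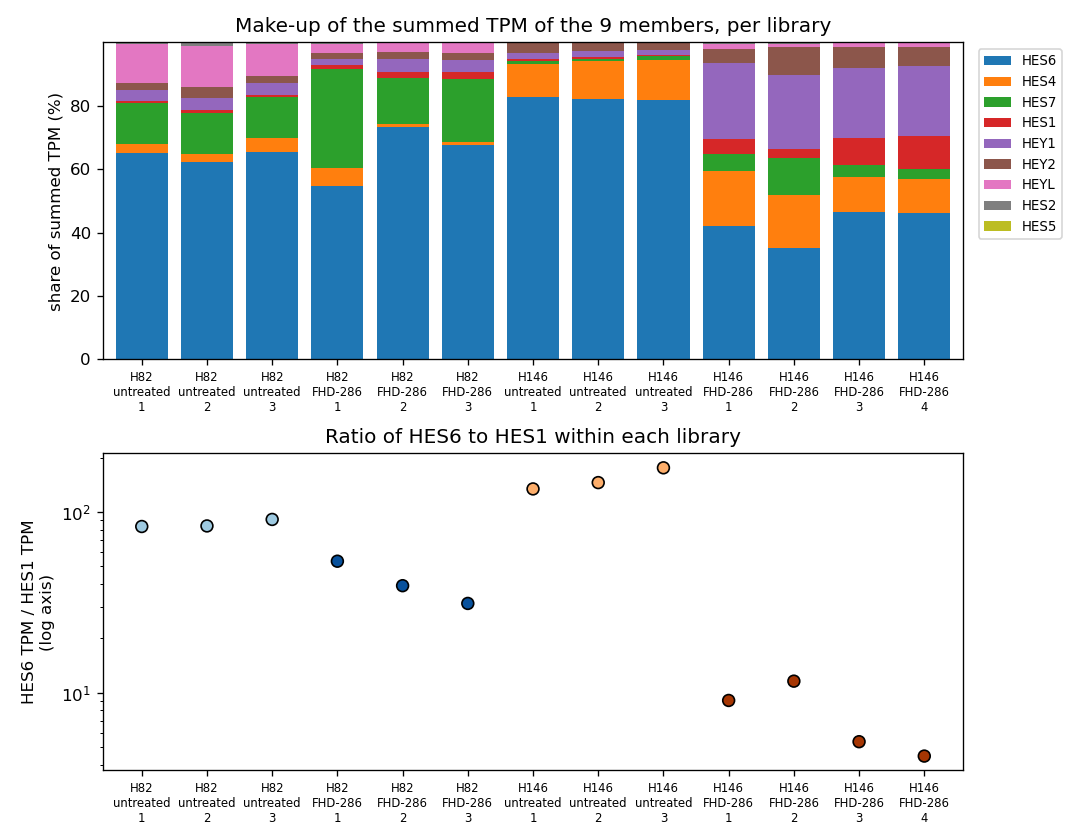
Upper panel, share of each member in the summed TPM of the 9 members, in percent, for each of the 13 libraries; lower panel, TPM of *HES6* divided by TPM of *HES1* in each library, on a log axis. The share of *HES6* is 81.9% to 82.9% in untreated and 35.3% to 46.4% in treated H146, and the ratio is lower in every treated library than in the untreated ones of its line.

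By mean level, the order in untreated H82 was *HES6*, *HES7*, *HEYL*, *HEY1*, *HES4*, *HEY2*, *HES1*, *HES2* and *HES5*. The libraries of neighbours in that order overlapped for *HES7* and *HEYL*, for *HEY1* and *HES4*, for *HES4* and *HEY2*, and for *HES1* and *HES2*. With treatment *HES6* and *HES7* stayed on top and apart from the rest, and *HEY1*, *HEYL*, *HES4*, *HEY2* and *HES1* followed, each overlapping the next. In untreated H146 the order was *HES6*, *HES4*, *HEY2*, *HEY1*, *HES7*, *HES1*, *HEYL*, *HES2* and *HES5*, and no neighbours overlapped. In treated H146 it was *HES6*, *HEY1*, *HES4*, *HES1*, *HEY2*, *HES7*, *HEYL*, *HES2* and *HES5*, where *HES1*, *HEY2* and *HES7* overlapped in turn, as did *HES2* and *HES5*. The tables of the lines carry no common scaling beyond the TPM sum, and levels are set side by side without a test between lines.

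The other genes of the Notch pathway were taken from a list of 65. In H82, 56 passed the filter, 13 were higher and 23 were lower, beside 13.1% higher and 45.5% lower of all genes, and the median log2 fold change was -0.35 beside -0.56. After the median of ratios, 19 were higher and 10 lower, beside 24.2% and 32.9% of all genes. In H146, 53 passed, 18 were higher and 8 were lower, beside 32.5% and 15.5% of all genes, with a median of 0.27 beside 0.25. The median of ratios gave 13 higher and 13 lower, beside 21.3% and 25.1% of all genes.

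Among the receptors, *NOTCH1* was lower in treated H82 (0.816 to 1.92 TPM against 2.20 to 4.36 TPM, log2 fold change -0.96 ± 0.29, SE, limma adjusted *p* = 0.0268) and higher in treated H146 (2.95 to 3.27 TPM against 1.42 to 1.72 TPM, 0.65 ± 0.15, SE, limma adjusted *p* = 0.00890). The fall in H82 did not pass after the median of ratios (limma adjusted *p* = 0.123), while quantile normalization gave 0.05, and it was not called without untreated replicate 1 or 3 or treated replicate 2 or 3 (limma adjusted *p* = 0.128, 0.123, 0.0800 and 0.0632). The rise of *NOTCH1* in H146 was not called after quantile normalization (limma adjusted *p* = 0.0694) or without untreated replicate 1 (limma adjusted *p* = 0.0503). *NOTCH3* was higher in treated H82, from 0.245 to 0.349 TPM to 1.12 to 3.56 TPM (1.18 ± 0.30, SE, limma adjusted *p* = 0.0131), which was not called without any 1 of the untreated libraries (limma adjusted *p* from 0.0673 to 0.0775). In H146 *NOTCH3* gave 0.37 ± 0.19 (SE, limma adjusted *p* = 0.128). *NOTCH2* gave -0.60 ± 0.26 in H82 (SE, limma adjusted *p* = 0.0903). It was called there without mitochondrial genes (-0.75, limma adjusted *p* = 0.0405) and without treated replicate 3 (-0.83, limma adjusted *p* = 0.0281). In H146, where *NOTCH2* was under 1 TPM and did not pass the filter, it was higher in every treated library. It was at 0.145 to 0.339 TPM in untreated and 0.754 to 0.976 TPM in treated H146. *NOTCH4* was under 1.1 TPM in all libraries and gave 0.19 ± 0.17 in H146 (SE, limma adjusted *p* = 0.386).

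Of the 5 ligands, 2 were higher and 1 was lower in H82, and 3 were lower and 0 higher in H146. The shares of all genes tested were 13.1% higher and 45.5% lower in H82, and 32.5% and 15.5% in H146. In H82, *DLL1* rose from 1.52 to 3.51 TPM to 6.80 to 11.2 TPM (log2 fold change 1.61 ± 0.29, SE, limma adjusted *p* = 0.00304) and *JAG1* from 0.947 to 1.59 TPM to 3.43 to 3.51 TPM (1.03 ± 0.20, SE, limma adjusted *p* = 0.00393). *JAG2* fell in both lines, from 5.07 to 5.34 TPM to 2.29 to 3.12 TPM in H82 (-0.76 ± 0.19, SE, limma adjusted *p* = 0.0108) and from 91.8 to 101 TPM to 21.0 to 33.4 TPM in H146 (-1.78 ± 0.16, SE, limma adjusted *p* = 0.000115), and the fall in H82 was not called under either scaling nor without untreated replicate 1 or 3 (limma adjusted *p* = 0.0620 and 0.0564). In H146, *DLL3*, an inhibitory ligand of NE cells, fell by 0.60 (log2, limma adjusted *p* = 0.00341), as did *DLL4*, which fell by 1.07 (limma adjusted *p* = 0.00991). *DLL1* and *JAG1* in H146, at -0.20 and -0.54, and *DLL3* and *DLL4* in H82, at 0.29 and -0.84, were not called (limma adjusted *p* from 0.143 to 0.439). Some of these passed without 1 library: *DLL3* without treated replicate 1 of H82 (0.56, limma adjusted *p* = 0.0101), *DLL4* without treated replicate 2 of H82 (-1.32, limma adjusted *p* = 0.0132) and *JAG1* without treated replicate 2 of H146 (-0.80, limma adjusted *p* = 0.00971). *DLL3* in H82 also passed after the median of ratios (0.78, limma adjusted *p* = 0.0261).

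Between ligand and target, *RBPJ* itself was at 33.9 to 38.8 TPM in untreated and 17.3 to 27.9 TPM in treated H82. In H146 it was at 23.4 to 30.3 TPM without and 38.0 to 41.4 TPM with treatment. Its log2 fold change in H82 was -0.64 ± 0.20 (SE, limma adjusted *p* = 0.0278), close to the median of -0.56 for all genes tested. In H146 it was 0.52 ± 0.13 (SE, limma adjusted *p* = 0.0100), beside a median of 0.25. How these 2 calls depend on the scaling is not given here. Of the 16 genes for ligand and receptor handling, 15 were tested in H82, with 2 higher and 9 lower, and 16 in H146, with 7 higher and 2 lower. Of all genes, 13.1% were higher and 45.5% lower in H82, and 32.5% were higher and 15.5% lower in H146. On the log2(TPM + 1) scale, the fall with the largest size in H82 was that of *LFNG*, a Fringe glycosyltransferase that modifies Notch, from 23.6 to 25.1 TPM to 2.66 to 4.83 TPM (-2.43 ± 0.21, SE, limma adjusted *p* = 0.000228). *NEURL1*, a ubiquitin ligase for Notch ligands, followed, from 3.50 to 6.68 TPM to 0.0257 to 0.364 TPM (-2.29, limma adjusted *p* = 0.000516). It was ahead of *LFNG* by mean TPM (21.9 against 6.44 times lower) and with a pseudocount of 0.1 (-4.13 against -2.69), and the order of this pair also turned after the median of ratios, where *NEURL1* gave -2.03. In H146 the largest fall was that of *NEURL1*, from 12.8 to 14.4 TPM to 0.747 to 1.69 TPM (-2.68 ± 0.19, SE, limma adjusted *p* = 2.90e-05). *CCND1*, which encodes cyclin D1, had the largest rise of the list in H82, from 0.238 to 0.381 TPM to 4.45 to 17.8 TPM (3.13 ± 0.45, SE, limma adjusted *p* = 0.00128). It belongs to the 4 other targets on the list, all tested in both lines, of which 1 was higher and 0 lower in each line. That gene was *CCND1* in both. The other targets *NRARP*, *DTX1* and *MYC* were not called in either line (limma adjusted *p* from 0.106 to 0.772).

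The HES proteins repress with Groucho-family corepressors, the TLE proteins. *TLE4* had the largest rise of the list in H146. It was at 0.861, 1.23 and 0.992 TPM in untreated and at 36.4, 33.6, 43.0 and 47.4 TPM in treated H146 (log2 fold change 4.33 ± 0.16, SE, limma adjusted *p* = 2.35e-06). In H82 *TLE4* was between 7.18 and 12.4 TPM in all 6 libraries and gave -0.14 ± 0.23 (SE, limma adjusted *p* = 0.614), with a sign that changed with the scaling. Of the 7 partners on the list, 6 were tested in H82, with 2 higher and 2 lower. All 7 were tested in H146, where *TLE4* alone was called. Beside these stand 13.1% higher and 45.5% lower of all genes in H82, and 32.5% and 15.5% in H146.

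**Figure D4:**
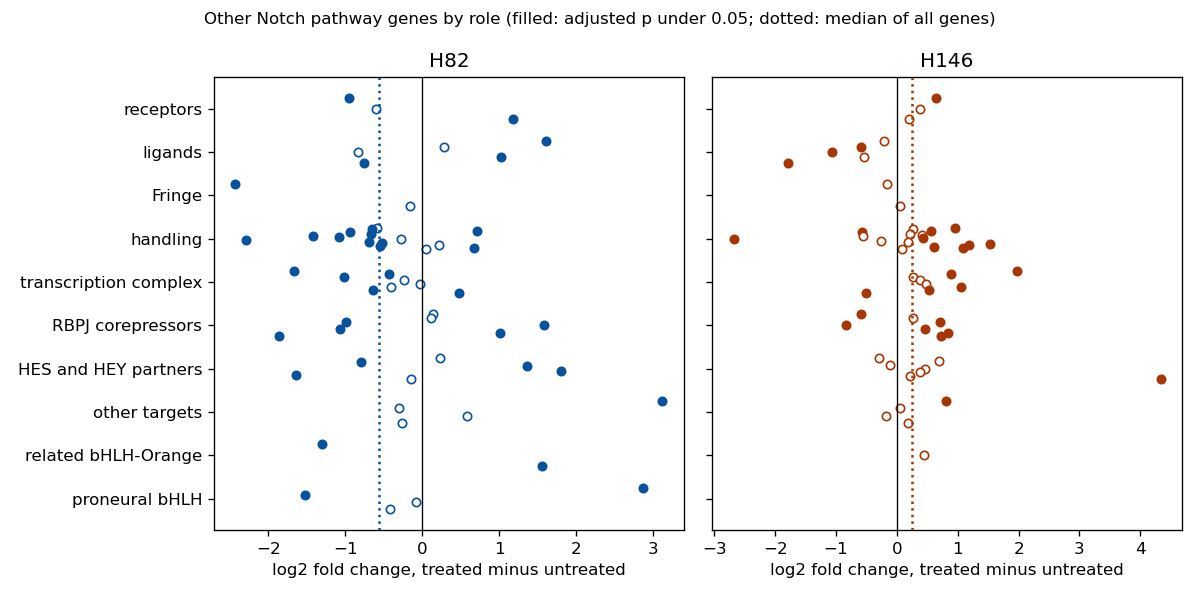
Log2 fold change, treated minus untreated on log2(TPM + 1), of each tested gene of the Notch pathway list (1 point a gene) by role, in H82 (left, 56 genes) and H146 (right, 53 genes); filled points passed an adjusted *p* of 0.05 and the dotted line is the median of all genes tested. The isolated point on the right in H146 is *TLE4* at 4.33, and the falls of *LFNG* in H82 (-2.43) and *NEURL1* in H146 (-2.68) lie farthest to the left.

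Of the 8 listed proneural genes, a class that HES repressors are known to oppose, 4 passed the filter in H82. *NEUROD1* was at 224 to 234 TPM in untreated and 48.0 to 112 TPM in treated H82 (log2 fold change -1.53 ± 0.30, SE, limma adjusted *p* = 0.00418). *ATOH8* rose from 2.02 to 2.53 TPM to 6.92, 39.9 and 44.5 TPM (2.88 ± 0.64, SE, limma adjusted *p* = 0.00726). *NEUROG1* and *NEUROD4* overlapped between the groups, at -0.42 and -0.08 (limma adjusted *p* = 0.526 and 0.930), with signs that changed with the median of ratios, and *NEUROD4* was called as lower without treated replicate 2 (-0.92, limma adjusted *p* = 0.0150). Replicate 1 of treated H82, the library with the lowest *HES1* and the highest *HES4* and *HES7* of its group, also had the lowest *ATOH8*, *NEUROG1* at 45.8 TPM against 188 and 193 TPM, and *NEUROD1* at 48.0 TPM. None of the 8 proneural genes on the list passed the filter in H146. *REST*, the repressor of neuronal genes, was at 7.46 to 8.64 TPM in untreated and 7.74 to 10.4 TPM in treated H82 (0.15 ± 0.18, SE, limma adjusted *p* = 0.498), and was called as higher after quantile normalization (0.88, limma adjusted *p* = 0.00518) or the median of ratios (0.59, limma adjusted *p* = 0.0245). In H146, where it did not pass the filter, *REST* was at 0.254, 0.168 and 0.252 TPM without and 0.537, 0.520, 1.41 and 1.37 TPM with FHD-286, with replicates 3 and 4 above 1 and 2, as for *HES1*.

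For each member tested in both lines, the genes with the nearest profile were found by the root mean square difference of log2(TPM + 1) over the 13 libraries, after the mean of each line was taken out. The nearest to *HEY1* was *ANGEL1* (0.122), which changed by 0.31 in H82 and 1.85 in H146. The nearest to *HEYL* was *NXPE3* (0.123), with changes of -1.06 and 0.76. *HES6* and *HES4* had no gene as close: the nearest were *UCP2* (0.268, changes of 0.71 and -2.21) and *SNHG5* (0.324, changes of -0.34 and -1.64). The nearest to *HES1* was *MRPS7* (0.215), to *HES7* *TRIM7* (0.196) and to *HEY2* *ILKAP* (0.151). These are descriptions with no test, and all points share the treatment contrast and the library.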

How the data were processed

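RNA was analysed from 6 libraries of H82 and 7 of H146. The authors trimmed reads with Trim Galore 0.4.4 and mapped them to hg38 with STAR, per the submitters' processing notes, counted them with GENCODE release 28 and compared groups with DESeq2. They deposited TPM values, 1 table a line, and the authors' handling of gene length is not given in the sources used here. Raw counts were not analysed here, so no count model is used and count-based intervals and limits are not printed.

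Each line was fitted in R 4.3.3 with limma 3.58.1 (lmFit, eBayes with trend, two-sided) on log2(TPM + 1). Genes at 1 TPM or more in 3 or more libraries entered, and Benjamini-Hochberg adjustment covered all of them. The difference between lines was the interaction over all 13 libraries. Members below the filter were compared by exact permutation. Fits were tested on simulated data. The members, gene lists, promoter motifs and the rule for named genes (all members, receptors, ligands, tested proneural genes, *REST*, and the largest called rise and fall of the Notch list in each line without overlap) were chosen with earlier results of these data known. Tried as alternatives were no filter, a pseudocount of 0.1, a mean TPM above 2, the median of ratios, quantile normalization, leaving out mitochondrial genes, the replicate block, no trend, the ratio of mean TPM, and each library left out. Tables were prepared with Python 3.11.15, numpy 2.4.6, pandas 2.3.3 and matplotlib 3.10.9.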

Additional observations from a re-analysis of the deposited data

Results flagged for a closer look

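For 4 of the 8 members tested, the treatment effect differed between the lines in the interaction test of limma. This is close to the 59.3% called among all 24374 genes tested. Each difference is given as the H146 effect minus the H82 effect on the log2 scale. The value was -3.52 for *HES6* and -0.86 for *HEY2*, and 1.40 for *HEY1* and 1.85 for *HEYL*. The direction held for these 4 under every alternative run, and the call of *HEY1* was lost under both scalings between libraries. Among the 4 treated H146 libraries, 1 stood apart from the other three for *NOTCH4*, where the gap was 0.926 of the range (0.623 TPM in replicate 2 against 1.03 to 1.06 TPM), and for *NEUROG1*, which was listed at 0 TPM in 3 libraries and at 0.193 TPM in replicate 3, a gap of 1 times the range. The gap was looked for in all members, all listed receptors, ligands and proneural genes, *REST* and the genes with the largest called changes. Chance alone marks about 1 in 20 groups of normally distributed values in this way, so a search this wide can mark some by chance. That rate does not apply to *NEUROG1*, since 1 library above 3 at 0 always gives a gap of the whole range.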

How the results depend on the processing

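The count of members called in H82 went from 3 higher to 5 under the median of ratios and under quantile normalization, and from 2 to 4 when a library was left out, while 1 was lower throughout. In H146, leaving out a library gave 1 to 3 higher and 2 to 3 lower. For the difference between lines, 1 positive and 4 negative calls were made under the median of ratios and 1 positive call under quantile normalization, and leaving out a library gave 2 positive and 2 to 3 negative calls. In the Notch pathway list, 10 (median of ratios) and 14 (quantile normalization) genes were lower in H82 and 13 (median of ratios) in H146. Leaving out a library gave 9 to 15 higher and 13 to 24 lower in H82, and 15 to 20 higher and 5 to 10 lower in H146. The cause was not tested.

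Signs that changed belonged to values that were not called, apart from *JAG2* and *NOTCH1* in H82 (0.20 and 0.0529 under quantile normalization). Under the median of ratios they were *HES4* (0.42), *NEUROD4* (0.32), *NEUROG1* (0.0703) and *TLE4* (0.31) in H82, and *HES1* (-0.59) and *HES2* (-0.0334) for the difference between lines. Under quantile normalization they were *HES2* (0.45), *HES4* (0.85), *DLL4* (0.00470), *NEUROD4* (0.78) and *TLE4* (0.46) in H82, *NOTCH4* (-0.0183) in H146, and *HES1* (-1.08) and *HES2* (-0.75) for the difference. The difference for *HES1* was also -0.17 with a pseudocount of 0.1. With a library left out, the range was -0.73 to 0.39 for *HES4* in H82, -0.20 to 0.46 for the difference in *HES1*, -0.19 to 0.0354 for *HES2* in H146, -0.42 to 0.20 for *LFNG* in H146, and, in H82, -0.92 to 0.36 for *NEUROD4*, -0.77 to 0.26 for *NEUROG1* and -0.27 to 0.0897 for *TLE4*.

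The labels do not say whether replicate numbers pair the libraries. Deviations of same-numbered libraries correlated at 0.027, 0.0075 and -0.038 in H82 and -0.11, -0.065 and 0.011 in H146. With so few libraries a group, these values show no shared deviation but cannot settle whether the libraries were paired. With the replicate block, 3 members were higher and 1 lower in H82 and 2 higher and 2 lower in H146, where *HEYL* (0.69, limma adjusted *p* = 0.0772) and, of the list, *NOTCH1* (0.63, limma adjusted *p* = 0.0744) were not called, and the difference for *HES1* was -0.20. The fourth treated H146 library has no partner and drops out of that comparison. The unknown read depth and the 3 or 4 libraries a group limit low genes such as *HES5*.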
